A study of Mus musculus with 6 samples.

Results

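Esr1, Esr2, Gper1 and Greb1 were 4 of the 19288 genes counted in LLC1 tumours of mice carrying a beta-hCG transgene, and they were found by their symbols in the count table. Esr1 and Esr2 encode the nuclear oestrogen receptors alpha and beta, Gper1 encodes a membrane receptor coupled to G proteins, and Greb1 is an oestrogen-induced gene. All 4 members passed the filter on low counts.

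The 6 tumour libraries formed 3 groups of 2. The progesterone group came from ovariectomized transgenic mice given progesterone, the vehicle group from ovariectomized transgenic mice given vehicle, and the transgenic group from transgenic mice for which the labels name neither ovariectomy nor supplementation. All hosts carried the beta-hCG transgene, being progeny of a CB57BL/6 mother and a beta-hCG transgenic FVB father, and all bore subcutaneous implants of LLC1, 1 established line of Lewis lung carcinoma cells. Supplementation lasted 28 days and tumours were collected on day 30 after implantation, per the labels. The promoter that drives the transgene, the ages of the mice and a group without the transgene are not named in the labels, so no comparison bears on the transgene itself. The vehicle group differed from the transgenic group in both surgery and vehicle, which cannot be told apart. Each library mixed RNA of tumour cells and of host cells, both mouse. For every gene below, fewer cells of a type and less RNA per cell cannot be told apart.

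Oestrogen receptors alpha and beta are hormone-activated transcription factors. They bind DNA as dimers at oestrogen response elements, which are palindromes of paired half-sites, and also act through other factors such as Sp1 and AP-1. GPER1 instead acts through adenylyl cyclase and through shedding of HB-EGF, which activates the EGF receptor. GREB1 is best known in human breast cancer cells, where oestrogen receptor alpha switches the gene on and the protein joins the receptor on chromatin as a cofactor. Ovaries are the main source of circulating oestradiol in female mice, and progesterone acts through its own nuclear receptor, itself a classical oestrogen receptor target.

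Esr1 (ENSMUSG00000019768) lies on the plus strand at chr10:4611593-5005614 (GRCm38), with 13661 bases of merged exons in the GENCODE annotation. Esr2 (ENSMUSG00000021055) lies on the minus strand at chr12:76120419-76177259 with 3368 exon bases. Gper1 (ENSMUSG00000053647) lies on the plus strand at chr5:139423151-139427800 with 2537 exon bases, inside the body of the oppositely transcribed gene 3110082I17Rik but sharing 0 exon bases with it. Greb1 (ENSMUSG00000036523) lies on the minus strand at chr12:16670615-16800886 with 9580 exon bases, of which 736 overlap an antisense gene, Gm48140. Whether counting used the strand is not given, so reads in those 736 bases cannot be assigned with certainty.

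All 4 members had an entry in the RefSeq promoter table (GRCm38.p6), with 6 windows in all, each running from 250 bases before a transcription start to 50 bases after it. The motifs searched on both strands were the full oestrogen response element GGTCANNNTGACC and its half-site TGACC, which the full element contains and which reads as the other arm of the palindrome on the opposite strand. A TATA box was searched as TATAAA. An Sp1 box was searched as GGGCGG. The full element was in 0 of the 6 windows, against 23 of 32851 promoter windows of the genome (0.0700%). Half-sites, by contrast, occurred in 40.5% of all windows. Shown here are the first windows of Esr1, Esr2 and Greb1, each of which holds a half-site, and that of Gper1, which holds none. The windows are Esr1 at chr10:4611739-4612038 (plus strand), Esr2 at chr12:76177210-76177509 (minus strand), Greb1 at chr12:16800837-16801136 (minus strand) and Gper1 at chr5:139422929-139423228 (plus strand). They are written 5′ to 3′ along the gene's strand with half-sites in capitals.
Esr1: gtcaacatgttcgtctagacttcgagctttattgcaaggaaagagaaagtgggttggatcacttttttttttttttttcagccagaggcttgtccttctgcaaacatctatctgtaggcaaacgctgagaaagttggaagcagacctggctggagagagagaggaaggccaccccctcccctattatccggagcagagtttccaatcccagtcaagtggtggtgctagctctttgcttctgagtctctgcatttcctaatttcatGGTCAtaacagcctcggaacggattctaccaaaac
Esr2: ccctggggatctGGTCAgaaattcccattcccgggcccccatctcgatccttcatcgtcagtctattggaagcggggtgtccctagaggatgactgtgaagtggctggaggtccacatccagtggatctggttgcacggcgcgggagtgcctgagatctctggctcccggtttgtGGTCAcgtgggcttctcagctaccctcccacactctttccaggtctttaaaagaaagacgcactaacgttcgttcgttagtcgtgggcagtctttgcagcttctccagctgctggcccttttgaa
Greb1: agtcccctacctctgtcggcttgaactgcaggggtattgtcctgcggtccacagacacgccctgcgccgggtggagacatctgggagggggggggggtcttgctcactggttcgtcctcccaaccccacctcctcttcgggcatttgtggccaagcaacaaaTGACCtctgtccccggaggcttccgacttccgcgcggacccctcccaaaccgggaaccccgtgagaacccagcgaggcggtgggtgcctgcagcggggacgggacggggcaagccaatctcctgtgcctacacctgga
Gper1: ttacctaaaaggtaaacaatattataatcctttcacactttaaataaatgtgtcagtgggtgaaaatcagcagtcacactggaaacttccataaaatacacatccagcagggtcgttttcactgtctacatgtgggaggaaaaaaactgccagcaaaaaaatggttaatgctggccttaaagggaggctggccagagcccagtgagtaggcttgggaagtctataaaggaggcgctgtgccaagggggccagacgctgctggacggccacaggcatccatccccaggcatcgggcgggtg
The left end of the Esr1 half-site lay 15 bases after the start, and those of Esr2 stood 238 and 75 bases before it. In Greb1 the single half-site stood 88 bases before the start, in a window of 65.3% G and C, and a second Greb1 start further into the gene had half-sites 194 and 85 bases before it. The second Esr1 window held none. Gper1 was the member with a TATA box, 29 bases before its start, a motif present in 13.6% of all windows, and it also held an Sp1 box, which 35.7% of windows contain. These matches describe the letters of the windows; no binding was measured.

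Between 19526775 and 30083925 counts were available per library. A count of 0 allows up to 3 counts, which is 0.103 to 0.159 CPM (counts scaled to library depth, here with TMM-scaled library totals) depending on the library, with counting error alone considered. Replicates differed far beyond sampling noise: the chi-square statistic per degree of freedom between the 2 libraries of a group was 65.3 for progesterone, 38.8 for vehicle and 98.1 for transgenic. The first principal component (31.5% of the variance) placed transgenic replicate 2 at -54.5 with the other libraries between -23.2 and 32.7, and the second (27.4%) placed progesterone replicate 2 at 62.9. The defining lung epithelial genes Sftpc and Scgb1a1 had at most 1 and 2 counts in any library and Epcam 1 to 6, whereas the keratins Krt8 and Krt18 had 3377 to 9360, so the lung origin of the line was not visible in the first 3 of these markers.

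**Figure D1:**
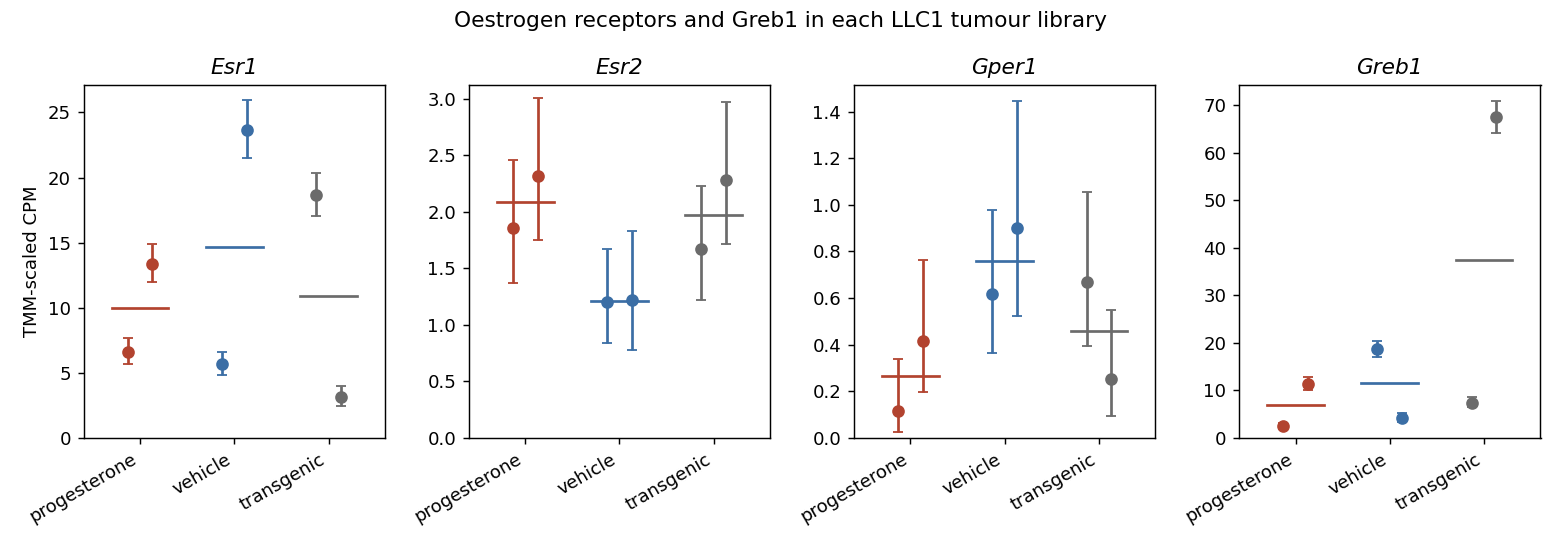
Level of each gene (CPM, TMM-scaled, y axes from 0 and separate for each gene) in the 6 libraries, grouped on the x axis as progesterone, vehicle and transgenic; points are libraries (replicate 1 on the left) with exact Poisson 95% intervals of counting error, and horizontal lines are group means. For Esr1 and Greb1 the libraries of a group stand far apart, with Greb1 at 67.5 CPM in transgenic replicate 2 and 7.41 CPM in replicate 1, while the Esr2 levels of vehicle libraries lie together at 1.20 and 1.22 CPM.

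Esr1, oestrogen receptor alpha, varied more between replicate libraries than between group means. It had 6.61 and 13.4 CPM in progesterone libraries (171 and 323 counts), 5.66 and 23.6 CPM in vehicle libraries (165 and 446 counts), and 18.7 and 3.16 CPM in transgenic libraries (504 and 75 counts). The highest library was a vehicle tumour and the lowest a transgenic tumour, and each pair of groups overlapped. Group means were 9.98 ± 4.78 CPM with progesterone, 14.7 ± 12.7 CPM with vehicle and 10.9 ± 11.0 CPM in transgenic tumours (SD, n = 2 each).

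In vehicle against transgenic tumours the Esr1 log2 fold change was 0.42 ± 0.90 (SE; 95% interval -1.71 to 2.55; edgeR quasi-likelihood test, adjusted p = 0.987). Progesterone against vehicle gave -0.55 ± 0.91 (edgeR adjusted p = 0.999), and progesterone against transgenic gave -0.13 ± 0.90 (edgeR adjusted p = 0.996). In no comparison was a gene called by edgeR at an adjusted p under 0.05, among members or elsewhere: the share called was 0% of 13632 genes in all 3 comparisons. At an unadjusted edgeR p under 0.05 there were 759 genes in vehicle against transgenic, 721 in progesterone against vehicle and 718 in progesterone against transgenic, and none of these was a member. DESeq2 called 66, 75 and 47 genes in these comparisons and limma-voom 0 in each, likewise without a member.

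The sign of each Esr1 difference depended on single libraries. Without vehicle replicate 2, vehicle against transgenic became -0.95 and progesterone against vehicle became 0.81. Without transgenic replicate 1, vehicle against transgenic was 2.21 and progesterone against transgenic was 1.65; without transgenic replicate 2, vehicle against transgenic was -0.35. Leaving out progesterone replicate 1 turned progesterone against transgenic to 0.28. No direction of Esr1 held over all of these fits.

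Esr2, oestrogen receptor beta, was the steadiest of the 4 genes. It had 1.86 and 2.32 CPM in progesterone libraries (48 and 56 counts), 1.20 and 1.22 CPM in vehicle libraries (35 and 23 counts), and 1.67 and 2.28 CPM in transgenic libraries (45 and 54 counts). Both vehicle libraries lay below all 4 others, and the progesterone and transgenic libraries overlapped. Means were 2.09 ± 0.327 CPM with progesterone, 1.21 ± 0.0130 CPM with vehicle and 1.97 ± 0.431 CPM in transgenic tumours (SD, n = 2 each).

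The Esr2 log2 fold change was -0.70 ± 0.49 in vehicle against transgenic (95% interval -1.86 to 0.46; edgeR adjusted p = 0.928). In progesterone against vehicle it was 0.78 ± 0.49 (95% interval -0.38 to 1.95; edgeR adjusted p = 0.999), and in progesterone against transgenic it was 0.08 ± 0.48 (edgeR adjusted p = 0.996). Neither difference from the vehicle group passed the test, and a pair of groups without overlap is common here: 35.6% of all tested genes had none in vehicle against transgenic, 36.2% in progesterone against vehicle and 29.0% in progesterone against transgenic. With any 1 library left out, the sign of both differences from the vehicle group stayed the same, with a range of -0.91 to -0.46 for vehicle against transgenic and 0.62 to 0.93 for progesterone against vehicle. Progesterone against transgenic ran from -0.13 without transgenic replicate 1 to 0.32 without transgenic replicate 2. With 23 to 56 counts per library, counting alone gave a wide interval, for example 0.773 to 1.83 CPM (95%, exact Poisson) in vehicle replicate 2 and 1.22 to 2.23 CPM in transgenic replicate 1.

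Gper1, the membrane receptor, was near the limit of detection. It had 3 and 10 counts in progesterone libraries (0.116 and 0.414 CPM), 18 and 17 counts in vehicle libraries (0.618 and 0.901 CPM), and 18 and 6 counts in transgenic libraries (0.667 and 0.253 CPM). Both progesterone libraries lay below both vehicle libraries, while the transgenic libraries overlapped with each of the other groups. In progesterone against vehicle, 36.2% of all tested genes had no overlap. The 3 counts of progesterone replicate 1 carry an exact Poisson interval of 0.0239 to 0.339 CPM.

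Means for Gper1 were 0.265 ± 0.211 CPM with progesterone, 0.759 ± 0.2005 CPM with vehicle and 0.460 ± 0.293 CPM in transgenic tumours (SD, n = 2 each). Progesterone against vehicle gave a log2 fold change of -1.50 ± 0.89 (95% interval -3.59 to 0.59; edgeR adjusted p = 0.980), the member difference of that comparison farthest from 0. Vehicle against transgenic gave 0.70 ± 0.85 (edgeR adjusted p = 0.969) and progesterone against transgenic -0.80 ± 0.89 (edgeR adjusted p = 0.982). For progesterone against vehicle the value ran from -2.65 without progesterone replicate 2 to -0.86 without progesterone replicate 1. Progesterone against transgenic came to 0.05 without transgenic replicate 1. No difference in Gper1 between groups passed the test, and the parts of low depth and of replicate spread in this were not tested.

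Greb1, the oestrogen-induced cofactor gene, spanned a 26.9-fold range over the 6 libraries, and up to 9.11-fold within a group. It had 2.51 and 11.3 CPM in progesterone libraries (65 and 273 counts), 18.7 and 4.29 CPM in vehicle libraries (544 and 81 counts), and 7.41 and 67.5 CPM in transgenic libraries (200 and 1601 counts). Transgenic replicate 2 stood above every other library, its own replicate included, and each pair of groups overlapped. The group means were 6.90 ± 6.21 CPM with progesterone, 11.5 ± 10.2 CPM with vehicle and 37.4 ± 42.5 CPM in transgenic tumours (SD, n = 2 each).

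Progesterone against transgenic gave a Greb1 log2 fold change of -2.44 ± 1.17 (95% interval -5.19 to 0.31; edgeR adjusted p = 0.914), and the value without transgenic replicate 2 was -0.11. In vehicle against transgenic it was -1.70 ± 1.13 (95% interval -4.36 to 0.97; edgeR adjusted p = 0.926), and without transgenic replicate 2 it was 0.64. Progesterone against vehicle gave -0.74 ± 1.12 (edgeR adjusted p = 0.999), with 0.67 when vehicle replicate 1 was left out and -2.20 when progesterone replicate 2 was. Both differences from the transgenic group thus depended on transgenic replicate 2.

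**Figure D2:**
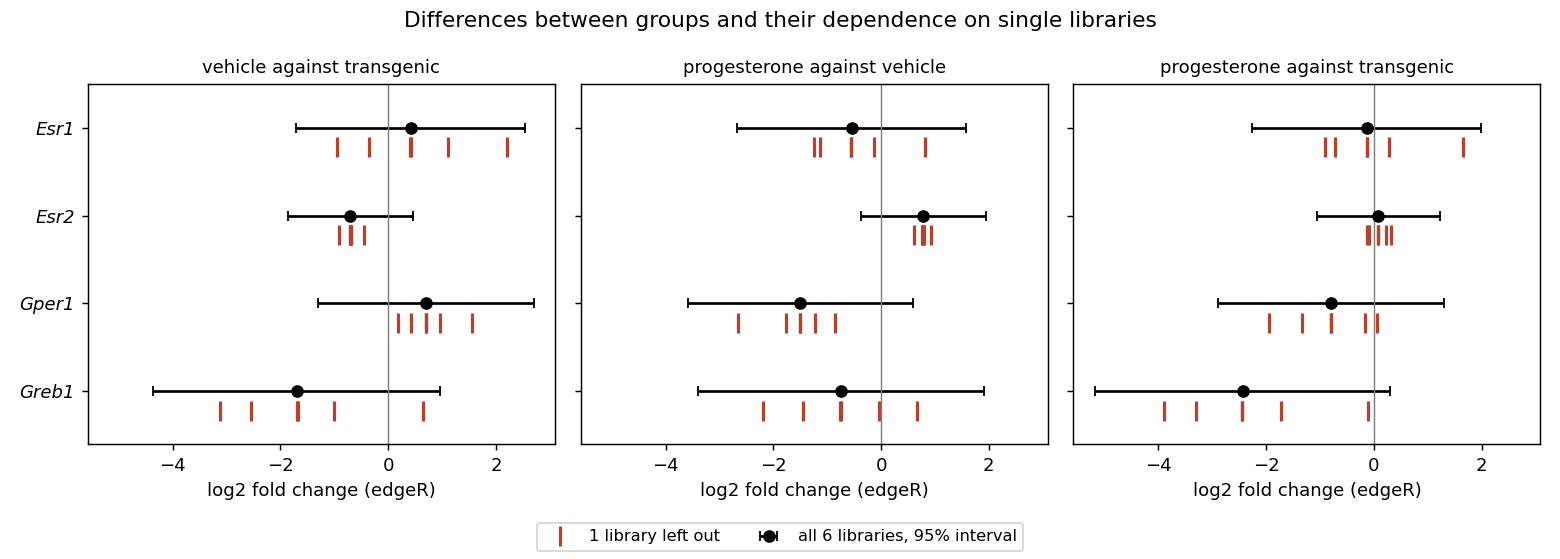
Log2 fold changes (edgeR, x axis) of the 4 genes (y axis) in vehicle against transgenic, progesterone against vehicle and progesterone against transgenic; black points with bars give the fit to all 6 libraries with its 95% interval, and red ticks give the fits that leave out 1 library each. Every interval spans 0, and for Greb1 in vehicle against transgenic the ticks run from -3.12 to 0.64.

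The members differed among themselves in how far the replicates of a group stood apart. On the log2 CPM scale the 2 transgenic libraries differed by 3.17 in Greb1, and 0.895% of tested genes differed at least as much between those libraries. The Greb1 difference was 2.13 between progesterone libraries (3.35% of genes at least as far apart) and 2.10 between vehicle libraries (1.75%). Esr1 replicates differed by 1.01 with progesterone (11.8%), 2.05 with vehicle (1.91%) and 2.53 in transgenic tumours (1.90%). Gper1 replicates, at 3 to 18 counts, differed by 1.33 with progesterone (8.03%), 0.49 with vehicle (20.9%) and 1.16 in transgenic tumours (11.0%). Esr2 replicates differed by 0.31 with progesterone (48.0%), 0.02 with vehicle (94.2%) and 0.43 in transgenic tumours (40.2%). Over all tested genes the median replicate difference was 0.29 with progesterone, 0.21 with vehicle and 0.33 in transgenic tumours. Esr2 replicates thus stood about as far apart as the median gene with progesterone and in transgenic tumours, and closer than most genes with vehicle.

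**Figure D3:**
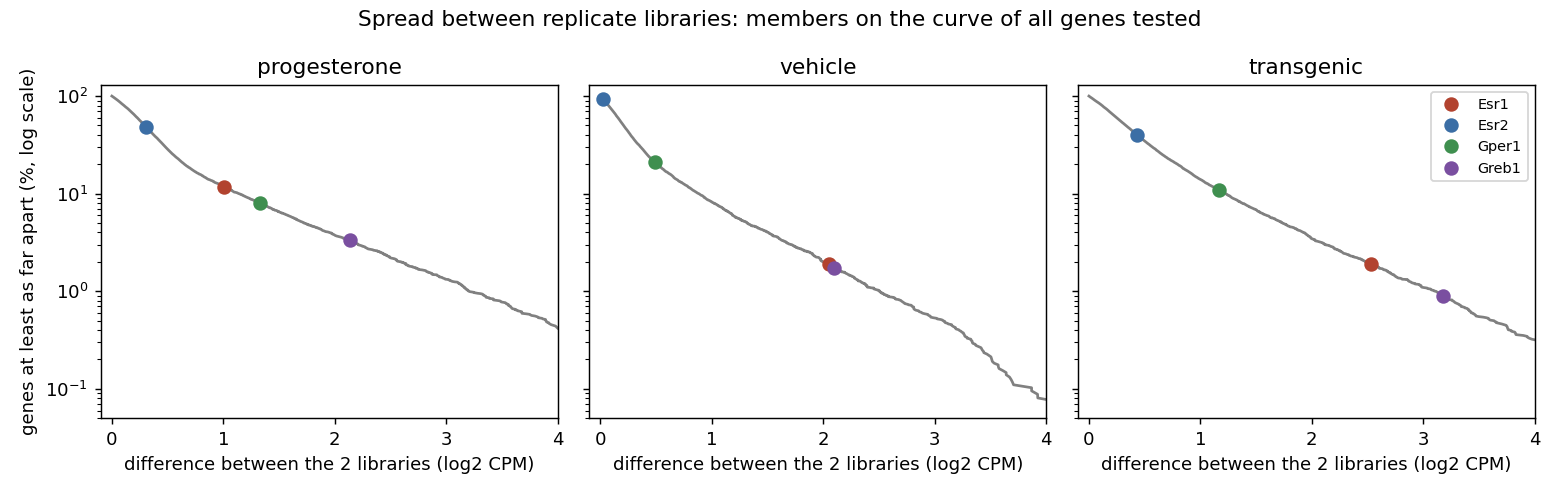
Difference between the 2 libraries of a group (log2 CPM, x axis) against the percentage of tested genes at least as far apart (y axis, log scale) in the progesterone, vehicle and transgenic groups; the grey curve is all tested genes and coloured points are the 4 members on it. Greb1 differs by 3.17 between the transgenic libraries, and Esr2 stays between 0.02 and 0.43.

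Within groups, Esr1 and Greb1 did not keep 1 order. In vehicle and transgenic tumours the library with more Esr1 had less Greb1 (23.6 and 4.29 CPM in vehicle replicate 2; 18.7 and 7.41 CPM in transgenic replicate 1), whereas progesterone replicate 2 had more of both. Across the 6 libraries Pearson's r between Esr1 and Greb1 on log2 CPM was -0.633 (exact permutation p = 0.175, adjusted 0.372 over 6 pairs) and Spearman's rho was -0.657 (exact permutation p = 0.175, adjusted 0.483). Without the 2 libraries farthest from the Esr1 median, r was 0.0308. Leaving these out narrows the range of Esr1, so this value cannot decide what the full r rested on. Esr1 and Gper1 had r = 0.649 (exact permutation p = 0.172, adjusted 0.372) and rho = 0.714 (exact permutation p = 0.136, adjusted 0.483), and r = 0.422 without the 2 farthest. None of the 6 pairs among the members had an adjusted p under 0.372. The other r values ran from -0.639 for Esr2 with Gper1 to 0.327 for Esr2 with Greb1.

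Genes compared were tested genes with a mean of at least 1 CPM and a symbol other than a Gm number, Rik clone or predicted ID. Those whose log2 CPM followed each member most closely over the 6 libraries were named. They are the highest r values of 11826 genes compared (11827 for Gper1), as a description of 6 points that share libraries and depth. Ppp1r9a (r = 0.988) and Tmem176b (r = 0.980) were closest to Esr1, followed by Cdon, which encodes a cell surface co-receptor of hedgehog signalling (r = 0.978), Zrsr2 (r = 0.977) and Sfn (r = 0.975). Cdon spanned 18.7 to 132 CPM and Zrsr2 only 48.9 to 57.2 CPM, so a high r did not mean a like amplitude. Closest to Esr2 were Kifc5b (r = 0.995), a kinesin gene, Incenp (r = 0.988), a subunit of the chromosomal passenger complex, Arhgap19 (r = 0.985), Tnfsf10 (r = 0.978), which encodes the death ligand TRAIL, and Ddx11 (r = 0.977), a DNA helicase gene. For Gper1, whose 3 to 18 counts per library carry wide counting error, they were Ptbp3 (r = 0.993), Rab9 (r = 0.991), P3h4 (r = 0.983), Snx9 (r = 0.982) and Parva (r = 0.981). Dicer1, the microRNA-processing endonuclease gene, was closest to Greb1 (r = 0.999), with Qser1 (r = 0.996), the transcriptional kinase gene Cdk12 (r = 0.996), Uevld (r = 0.982) and Osbpl1a (r = 0.975). Dicer1 had 86.6 and 95.9 CPM in progesterone libraries, 99.9 and 89.7 CPM in vehicle libraries, and 92.8 and 108 CPM in transgenic libraries, a 1.25-fold range beside 26.9-fold for Greb1.

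Measured against all tested genes, the members were expressed at low mean levels. Per kilobase of exon, the mean level over all 6 libraries was 1.94 ± 2.57 CPM for Greb1, 0.867 ± 0.594 CPM for Esr1, 0.521 ± 0.145 CPM for Esr2 and 0.195 ± 0.114 CPM for Gper1 (SD, n = 6). Of the tested genes, 72.3% had a higher mean level per kilobase than Greb1, 80.8% than Esr1, 85.5% than Esr2 and 93.0% than Gper1. The ranges of Greb1 and Esr1 overlapped, as did those of Esr1 and Esr2, but not those of Esr2 and Gper1. Greb1 ran from 0.262 to 7.04 CPM per kilobase, Esr1 from 0.231 to 1.73, Esr2 from 0.357 to 0.688 and Gper1 from 0.0457 to 0.355.

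The glucocorticoid receptor gene Nr3c1 had 18.7 ± 2.42 CPM per kilobase and the oestrogen-related orphan receptor gene Esrra 14.5 ± 1.78, both above every library of every member. Below the members by mean level, with ranges that overlap that of Gper1, were the mineralocorticoid receptor gene Nr3c2 at 0.0706 ± 0.0365, Esrrg at 0.0614 ± 0.0602, Greb1l, a relative of Greb1, at 0.0478 ± 0.0235, and Esrrb at 0.0395 ± 0.0275 CPM per kilobase. The related receptor genes that passed the filter, 5 of 7, had a median log2 fold change of -0.14 in vehicle against transgenic (2 positive, 3 negative), 0.20 in progesterone against vehicle (4 and 1) and 0.00 in progesterone against transgenic (3 and 2). These medians turned with single libraries left out. Without vehicle replicate 1 the first was -1.12 and the second 1.17, without vehicle replicate 2 they were 0.21 and -0.15, and without progesterone replicate 2 the second was -0.43 and the third -0.91. Without progesterone replicate 1 the second was 0.87 and the third 0.51, without transgenic replicate 1 the first was 0.16 and the third 0.25, and without transgenic replicate 2 they were -0.38 and -0.18. With the stricter filter the first was 0.15 and the second -0.11. Pgr, the progesterone receptor gene, had 0 and 0 counts in progesterone libraries, 2 and 0 in vehicle libraries, and 3 and 0 in transgenic libraries, below the limit of 3 counts in all libraries but 1, which was at it.

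**Figure D4:**
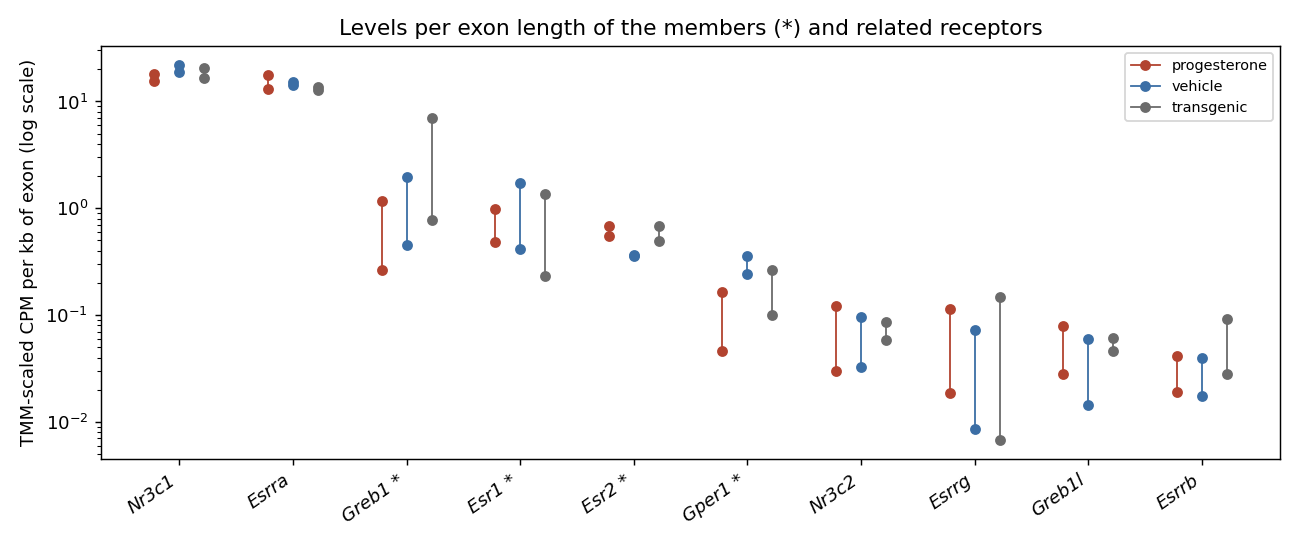
Level per kilobase of exon (CPM per kilobase, log axis) of the 4 members and of related receptor genes in each library, coloured by group in the order progesterone, vehicle and transgenic; a line joins the 2 libraries of a group, asterisks mark the members, and Pgr, with several counts of 0, is not drawn. Nr3c1 and Esrra lie above all members, and Greb1 has the widest spread, from 0.262 to 7.04 CPM per kilobase.

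Marker genes of other cell types were summed in the same libraries. Fibroblast markers (11 of 11 in the table) summed to 5334 and 10720 CPM in progesterone libraries, 6952 and 11700 CPM in vehicle libraries, and 7808 and 1961 CPM in transgenic libraries, dominated by Col3a1 (1414 to 8606 CPM). In each of the 3 groups the library with the larger sum, and the larger mean log2 CPM of these markers, also had more Esr1 and more Gper1. Lum, Pdgfra, Col3a1, Fap and Pi16 kept this order in each group, but the other markers did not. Dcn and Dpt had the opposite order in progesterone libraries. Col1a1, Col1a2, Mfap5 and Thy1 had it in transgenic libraries, and Col1a2 and Mfap5 also in vehicle libraries. The defining fibroblast genes Dcn (102 to 972 CPM) and Pdgfra (103 to 321 CPM) were present in every library, and Mfap5 had 0 counts in vehicle replicate 2. Adipocyte markers (7 of 7) summed to 7.88 and 31.5 CPM in progesterone libraries, 6.62 and 12.9 CPM in vehicle libraries, and 19.8 and 7.71 CPM in transgenic libraries, again in the order of Esr1 and Gper1, but nearly all of it was Fabp4, and Adipoq had 0 to 10 counts.

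Endothelial markers (9 of 9) summed to 111 and 258 CPM in progesterone libraries, 251 and 249 CPM in vehicle libraries, and 247 and 299 CPM in transgenic libraries, with the within-group order of Greb1, though the vehicle libraries hardly differed. Macrophage and monocyte markers (10 of 10) summed to 1102 and 1246 CPM in progesterone libraries, 658 and 676 CPM in vehicle libraries, and 432 and 1091 CPM in transgenic libraries. The summed level had the order of Esr2 in each group, though in vehicle libraries the sums hardly differed, nor did Esr2, at 1.20 and 1.22 CPM. The mean log2 CPM of these markers did not keep that order, at 6.04 and 6.01 in progesterone libraries, 5.33 and 5.19 in vehicle libraries, and 4.78 and 6.05 in transgenic libraries. In progesterone libraries the mannose receptor gene Mrc1 carried the order of the sum, at 219.7 and 434 CPM. T cell markers (8 of 8) summed to 6.38 and 5.25 CPM in progesterone libraries, 1.96 and 1.38 CPM in vehicle libraries, and 3.0 and 12.8 CPM in transgenic libraries, and like Esr2 they were lowest in the vehicle group. Their replicate order was opposite to that of Esr1 and Gper1 in each group. Neutrophil markers (6 of 6) summed to 340.3 and 214 CPM in progesterone libraries, 189.6 and 271 CPM in vehicle libraries, and 270.3 and 62.4 CPM in transgenic libraries, opposite to Greb1 in each group. In all, 12 of 48 combinations of a member and a marker list had the same order of replicates in every group by the summed level. Esr1 and Gper1 shared their replicate order, so each list that matched 1 of them matched both. The share of all tested genes that match these lists was not computed, so the count was not read as a link with a cell type. The 12 combinations also included mast cell and basophil markers with Esr1 and Gper1. Those markers summed to 113 and 204 CPM in progesterone libraries, 53.8 and 57.1 CPM in vehicle libraries, and 48.0 and 41.9 CPM in transgenic libraries. The rest were skin keratinocyte markers (6 of 7 in the table, 0.337 to 1.90 CPM over the libraries) with Esr1 and Gper1, pericyte and smooth muscle markers (8 of 8, 87.9 to 247 CPM) with Esr2, and skeletal muscle markers (7 of 7, 3.98 to 12.2 CPM) with Greb1. The match with Esr2 includes the vehicle group, where Esr2 hardly differed. For these lists other than the pericyte and smooth muscle markers the mean log2 CPM of the markers did not keep this order in every group. Mast cell and basophil markers had mean log2 CPM of 0.68 and 1.75 in transgenic libraries, where the histidine decarboxylase gene Hdc alone was lower in replicate 2, at 30.8 and 7.50 CPM. Skeletal muscle markers had mean log2 CPM of 0.62 and -0.55 in transgenic libraries, where the troponin gene Tnnt3 alone was higher in replicate 2, at 2.78 and 10.6 CPM. Skin keratinocyte markers had mean log2 CPM of 0.74 and 0.65 in progesterone libraries, where Krtdap alone was higher in replicate 2, at 0 and 0.414 CPM. Mammary epithelial markers (8 of 10 in the table) summed to 261 to 763.5 CPM and lung epithelial markers (7 of 10) to 267 to 766 CPM, and Krt8 and Krt18 stand in both lists. The part of these cell types in the levels of the members was not tested.

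Genes of the receptors' pathways were then described from 8 lists, none with a gene called by edgeR in any comparison of the reported fit (0% of all tested genes called). Of 26 classical oestrogen receptor targets, 24 were in the table and 20 passed the filter. In vehicle against transgenic, 14 of the 20 had a positive and 6 a negative log2 fold change, with a median of 0.27 against -0.01 over all tested genes. Progesterone against vehicle gave 9 positive and 11 negative with a median of -0.07, and progesterone against transgenic 13 and 7 with a median of 0.09. Without vehicle replicate 1 the first of these medians was 0.04 and the second was 0.21, and scaling by library totals turned the second to 0.02. Greb1, a target of the same receptor, was not in the list.

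Igfbp4, which encodes an insulin-like growth factor binding protein, had 1512 and 1059 CPM in progesterone libraries, 2126 and 2125 CPM in vehicle libraries, and 1642 and 1000.0 CPM in transgenic libraries. Its log2 fold change was 0.69 ± 0.28 in vehicle against transgenic (edgeR adjusted p = 0.862) and -0.73 ± 0.28 in progesterone against vehicle (edgeR adjusted p = 0.939). Both vehicle libraries lay above all others, but neither difference passed the test. Groups did not overlap in 35.6% of tested genes in vehicle against transgenic and in 36.2% in progesterone against vehicle. Ltf, encoding lactotransferrin, had 1 and 2 counts in progesterone libraries, 30 and 7 counts in vehicle libraries, and 26 and 3 counts in transgenic libraries. Its fitted log2 fold change in progesterone against vehicle was -3.46 ± 1.26 (edgeR adjusted p = 0.939), on counts at or under the limit of 3 in both progesterone libraries. Ctsd, encoding the protease cathepsin D, had 75.1 and 73.0 CPM in progesterone libraries, 48.1 and 54.9 CPM in vehicle libraries, and 26.6 and 52.3 CPM in transgenic libraries, with a log2 fold change of 0.91 ± 0.30 in progesterone against transgenic (edgeR adjusted p = 0.914). Ccnd1, the cyclin D1 gene, had 484 and 405 CPM in progesterone libraries, 352 and 403 CPM in vehicle libraries, and 426 and 469.5 CPM in transgenic libraries. Tff1 had 0 and 0 counts in progesterone libraries, 0 and 0 in vehicle libraries, and 1 and 2 in transgenic libraries.

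The 8 partner transcription factors of oestrogen receptor alpha all had positive log2 fold changes in vehicle against transgenic (median 0.26), and 7 of 8 were negative in progesterone against vehicle (median -0.23). In progesterone against transgenic 4 were positive and 4 negative, with a median of -0.01. Without transgenic replicate 2 the first median was 0.03 and the third -0.21, and without transgenic replicate 1 they were 0.65 and 0.58. The second was -0.05 without progesterone replicate 1, -0.48 without progesterone replicate 2 and -0.06 without vehicle replicate 2. Tfap2c, encoding the AP-2 gamma factor, had 2.28 and 6.12 CPM in progesterone libraries, 3.81 and 6.20 CPM in vehicle libraries, and 1.33 and 0.337 CPM in transgenic libraries, and its log2 fold change was 2.56 ± 0.78 in vehicle against transgenic (edgeR adjusted p = 0.811). The pioneer factor gene Foxa1 had 0.541 and 0.497 CPM in progesterone libraries, 0.515 and 2.28 CPM in vehicle libraries, and 1.0 and 0.337 CPM in transgenic libraries, with the highest library, vehicle replicate 2, also highest in Esr1.

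The median log2 fold changes of coregulators were close to 0. The 12 coactivators had medians of 0.07 in vehicle against transgenic (8 positive, 4 negative), -0.05 in progesterone against vehicle (3 and 9) and 0.02 in progesterone against transgenic (6 and 6), and the 9 corepressors had medians of 0.07 in vehicle against transgenic (8 and 1), -0.08 in progesterone against vehicle (2 and 7) and -0.01 in progesterone against transgenic (3 and 6). When library totals replaced TMM the progesterone against vehicle medians were 0.03 for coactivators and 0.01 for corepressors. Kmt2d, a histone methyltransferase gene, had 224 and 272 CPM in progesterone libraries, 247 and 220.3 CPM in vehicle libraries, and 185 and 208 CPM in transgenic libraries. All 10 chaperone genes of the receptors had negative log2 fold changes in progesterone against transgenic (median -0.24), as did 8 of 10 in vehicle against transgenic (median -0.24) and 6 of 10 in progesterone against vehicle (median -0.04, or 0.04 with library totals). Hsp90aa1, encoding the HSP90 alpha chaperone, had 878 and 875 CPM in progesterone libraries, 934 and 1053 CPM in vehicle libraries, and 1092 and 1345 CPM in transgenic libraries, with -0.48 ± 0.18 in progesterone against transgenic (edgeR adjusted p = 0.914). The J-domain co-chaperone gene Dnajb1 had 83.5 and 69.4 CPM in progesterone libraries, 113 and 133 CPM in vehicle libraries, and 81.9 and 102 CPM in transgenic libraries, with -0.68 ± 0.18 in progesterone against vehicle (edgeR adjusted p = 0.932).

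Of 12 genes of GPER1 signalling, all tested, 10 were positive in vehicle against transgenic (median 0.11), 10 were negative in progesterone against vehicle (median -0.16) and 7 were negative in progesterone against transgenic (median -0.05). Without progesterone replicate 2 the second median was -0.03 and the third 0.08, and with library totals the second was -0.08. Hbegf, encoding the EGF receptor ligand that GPER1 signalling releases, had 42.9 and 40.3 CPM in progesterone libraries, 76.1 and 75.2 CPM in vehicle libraries, and 80.8 and 84.8 CPM in transgenic libraries. Both progesterone libraries lay well below the other 4. Of all tested genes, 36.2% had no overlap in progesterone against vehicle and 29.0% in progesterone against transgenic. The share with none in both was not computed. The log2 fold change of Hbegf was -0.86 ± 0.15 in progesterone against vehicle (edgeR unadjusted p = 0.000554, adjusted p = 0.705) and -0.99 ± 0.15 in progesterone against transgenic (edgeR unadjusted p = 0.000234, adjusted p = 0.798). DESeq2 called it in both (DESeq2 adjusted p = 6.77e-05 and 1.23e-06), and edgeR without a filter called it in progesterone against transgenic (edgeR adjusted p = 0.0418). The adjusted p over all alternatives ran up to 1.0 in each comparison. Egfr itself had 55.6 and 69.1 CPM in progesterone libraries, 72.1 and 106 CPM in vehicle libraries, and 79.1 and 40.0 CPM in transgenic libraries.

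Local synthesis and inactivation of oestrogens were represented by 12 genes, of which 10 were in the table and 6 passed the filter. Cyp19a1, the aromatase gene, had 2 and 3 counts in progesterone libraries, 7 and 1 counts in vehicle libraries, and 5 and 2 counts in transgenic libraries, and did not pass. In the 6 tested genes the medians were 0.47 in vehicle against transgenic (4 positive, 2 negative), -0.08 in progesterone against vehicle (2 and 4) and -0.03 in progesterone against transgenic (3 and 3), and the first was -0.12 without vehicle replicate 2. Hsd17b7, whose enzyme converts oestrone to oestradiol and also serves cholesterol synthesis, had 24.1 and 17.8 CPM in progesterone libraries, 65.6 and 29.6 CPM in vehicle libraries, and 28.9 and 18.7 CPM in transgenic libraries. Its log2 fold change was 1.0 ± 0.41 in vehicle against transgenic (edgeR adjusted p = 0.862) and -1.19 ± 0.41 in progesterone against vehicle (edgeR adjusted p = 0.936). Cyp1b1, an oestrogen hydroxylase gene, had 0.0773 and 6.87 CPM in progesterone libraries (2 and 166 counts), 0.137 and 1.75 CPM in vehicle libraries (4 and 33 counts), and 0.926 and 0.295 CPM in transgenic libraries (25 and 7 counts).

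**Figure D5:**
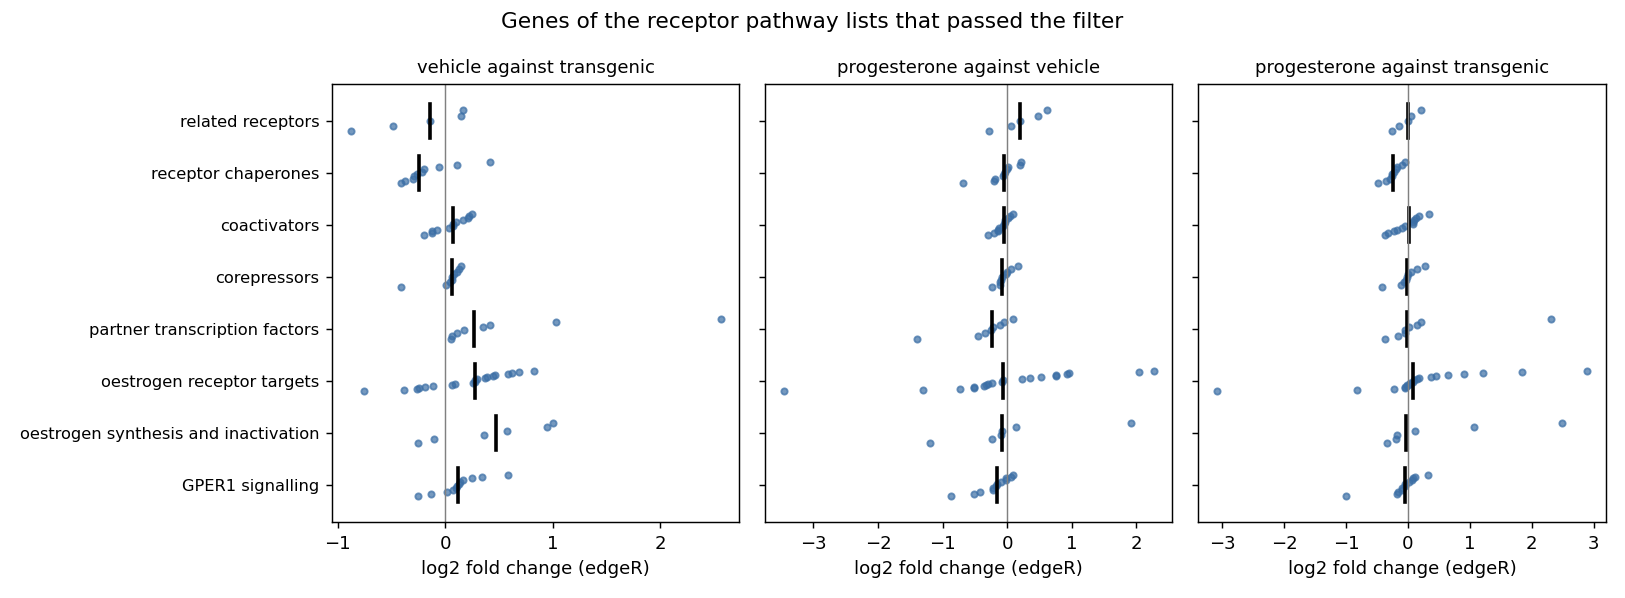
Log2 fold changes (edgeR) of the tested genes of the 8 pathway lists in the 3 comparisons; points are genes and the bar marks the median of a list (x axes differ between panels). The partner transcription factors have a median of 0.26 in vehicle against transgenic and -0.23 in progesterone against vehicle, and no gene passed the edgeR test after the filter on low counts.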

How the data were processed

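RNA of LLC1 tumours, in 3 labelled groups of 2 libraries, was sequenced after preparation with a directional kit from 500 ng of total RNA and 11 PCR cycles, per the labels' protocols. The deposited values are raw read counts per gene with no normalization (19288 gene IDs, 19284 of them in the GENCODE annotation of GRCm38). HISAT2, HTSeq, DESeq and the build GRCm38.p6 are named in the submitters' processing notes; neither versions nor the strand setting are given in these sources. All count columns were used.

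Counts were analysed in R 4.3.3 with edgeR 4.0.16: filterByExpr (13632 genes kept), TMM scaling, and 1 quasi-likelihood model of the 3 group means over the 6 libraries, which leaves 3 residual degrees of freedom. Calls required an adjusted p (Benjamini-Hochberg, over all tested genes) under 0.05. CPM values are TMM-scaled, and log2 CPM used a prior count of 2. The labels do not say that the libraries of a group came from separate animals, so p-values measure the spread between libraries, which may be technical. Where 1 symbol had several gene IDs, the ID with the larger total was used.

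The members, the 8 pathway lists and the 12 marker lists were chosen with earlier results of these data known. Named genes were the 4 members and the 2 genes with the smallest unadjusted p per list and comparison, of which the text gives a selection. The 5 genes most correlated with each member over the 6 libraries were also named, leaving out Gm numbers, Rik clones and predicted IDs. Genes named for levels beyond these (Pgr, Tff1, Cyp19a1, the lung markers and single marker genes) were chosen after their values were seen. The fit was tested on simulated counts. Alternatives were DESeq2 1.42.0 (Wald test, and its size factors in edgeR), library totals, limma 3.58.1 with voom, no filter, a stricter filter, only the groups compared, a replicate block, and leaving out each library. Promoter sequences are RefSeq's. A result among the related receptors is not reported here.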

Additional observations from a re-analysis of the deposited data

How the results depend on the processing

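No member was called at an adjusted p under 0.05 under any alternative that gave one. Of the member values, 154 kept their direction and 11 reversed. Leaving out single libraries gave ranges of log2 fold change of -0.95 to 2.21 (Esr1, vehicle against transgenic), -1.25 to 0.81 (Esr1, progesterone against vehicle), -0.91 to 1.65 (Esr1, progesterone against transgenic), -0.13 to 0.32 (Esr2, progesterone against transgenic), -1.95 to 0.0527 (Gper1, progesterone against transgenic), -3.12 to 0.64 (Greb1, vehicle against transgenic) and -2.20 to 0.67 (Greb1, progesterone against vehicle). Where this left a group with 1 library, that library was assumed to vary like the other groups. The other reversal was Esr1 in progesterone against transgenic, 0.22 with limma-voom; its cause was not tested. For Greb1 in progesterone against transgenic the range was -3.89 to -0.11, with 0.232 as the smallest edgeR adjusted p, without a filter. Genes called in vehicle against transgenic, progesterone against vehicle and progesterone against transgenic numbered 66, 75 and 47 with the DESeq2 Wald test and 12, 92 and 28 without a filter, against 0 in the reported fit; the cause was not tested. DESeq2 gave no adjusted p for Gper1 in the comparisons with transgenic tumours, and the stricter filter removed Gper1. Differences between replicates 1 and 2 correlated over genes at -0.125 for progesterone and vehicle, -0.174 for progesterone and transgenic, and 0.0804 for vehicle and transgenic. With 1 such difference per group, these values cannot decide whether replicate numbers mark a pairing. With the replicate number as a block 0 genes were called in each comparison, and Greb1 was -0.77 in vehicle against transgenic, -1.51 in progesterone against vehicle and -2.28 in progesterone against transgenic. Of the list medians 704 moved by less than the replicate spread and 52 by more. Gper1 had the fewest counts of the members, with 72 in all.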
